A study of Mus musculus with 8 samples.

Results

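The genes of the cytosolic ribosome's proteins were followed in regulatory T (Treg) cells of mice with and without the microRNA cluster miR-181a/b-1. Members were chosen by name. A gene entered if a probe set with exactly 1 gene symbol carried a symbol that begins with Rpl or Rps and a digit, or the symbol Rpsa, Rplp0, Rplp1 or Rplp2. Kinases of the Rps6k family and symbols with -ps, which mark pseudogenes, were left out, and each gene was read from its probe set with the highest mean over all 8 arrays. This gave 69 members among the 22180 genes measured. By their names, 35 belong to the large subunit, 23 to the small subunit, 9 are paralogs of a ribosomal protein, and Rps19bp1 and Rps23rg1 are a binding protein and a retrogene.

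Treg cells positive for Foxp3, CD4 and CD25 were sorted by the GFP of a Foxp3 reporter from the thymus and the spleen of C57BL/6J mice, 7 to 12 weeks old, and their RNA was measured on 8 Affymetrix arrays, 2 for each of 4 groups. The study's methods differ here: they describe a human CD2 reporter of Foxp3 and a GFP reporter of Rag1, and name none for the arrays. KO mice (miR181-/-) lack miR-181a/b-1 in all cells from the germline on, and HET mice (miR181+/-), which keep 1 copy, were the controls. The groups were thymus KO, thymus HET, spleen KO and spleen HET. By the labels, each KO array held cells of 2 female mice and 1 male mouse, and the HET pools held 3 or 4 female mice and 1 male mouse. The thymus and the spleen array of one genotype and number came from the same pool. A thymus gate on Foxp3, CD4 and CD25 takes in newly formed Treg cells and mature ones that have returned from the periphery.

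The cytosolic ribosome translates all messages of the nucleus. Its proteins are made in matched amounts, and many of their mRNAs begin with a 5′ terminal oligopyrimidine (TOP) tract, a C followed by a run of C and T, through which the kinase mTOR sets how well they are translated. In T cells, mTOR activity and protein synthesis follow signals of the T cell receptor, whose strength in thymocytes is tuned by miR-181a. The comparisons ask whether the transcripts of this set differ between KO and HET Treg cells in either organ, and between thymic and splenic Treg cells. On arrays the signal measures transcript abundance and not translation, and fewer cells of a type cannot be told apart from less RNA per cell.

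The values are log2 intensities as deposited. Array medians lay between 4.58 and 4.70, and the 95th percentile of 1105 olfactory receptor genes, 4.62, was taken as the background bound. The probe sets for the deleted microRNAs lay under that bound on every array, Mir181a-1 between 1.81 and 2.57 and Mir181b-1 between 2.26 and 3.44, so that they did not check the genotype. Of the sex-linked genes, the labels were contradicted by Xist, the RNA of the inactive X chromosome of female cells. Xist stood at 9.40 and 8.80 in thymus KO and 8.93 and 9.05 in spleen KO, against 3.90 and 4.40 in thymus HET and 3.89 and 3.58 in spleen HET, all under the bound although both HET pools are labelled as mostly female. The Y-linked genes Eif2s3y (7.07 to 8.07), Kdm5d (7.08 to 7.77) and Uty (6.39 to 7.27) were above the bound on every array. Each averaged lower in KO in both organs. KO arrays thus carried signal of female and male cells, and HET arrays of male cells. Genotype and the share of female cells therefore cannot be told apart here, which bears most directly on the X-linked members Rps4x and Rpl39. Foxp3 (10.79 to 11.24) and Il2ra (10.99 to 11.20), which define Treg cells, were high on all arrays. Of the markers of other cells, 3 of 5 B cell and 3 of 7 myeloid genes had means under the bound, with Cd79a at 4.30 to 4.69 and Lyz2 at 4.03 to 4.70. Others were above it on every array, Ighm at 9.83 to 11.02, Cd79b at 5.61 to 6.52 and Cd68 at 5.47 to 5.97.

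Most canonical ribosomal protein genes were among the brightest on the arrays. Member means ran from 2.38 to 12.42 with a median of 9.27, and 63 of 69 lay above the bound. The 37 members with a mean above 8 were all in the top 10% of genes, and no member lay between 7.5 and 8.5. Rpl21 had the brightest probe set, at 12.31 to 12.46. Rps6, a substrate of the kinase that mTOR activates, followed at 12.31 to 12.45. The 6 members under the bound were Rps15, Rplp2 and the paralogs Rpl3l, Rpl10l, Rpl32l and Rps4l. Rpl3l is known from striated muscle and Rpl10l from the testis. A low value of a canonical gene is one of its probe set, since intensities of different probe sets depend on the probes and cannot be set against each other. The same holds within genes. In 25 members with several probe sets, the brightest and the dimmest differed by a median of 4.35 log2 units, and by more than 2 in 21 of them.

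**Figure D1:**
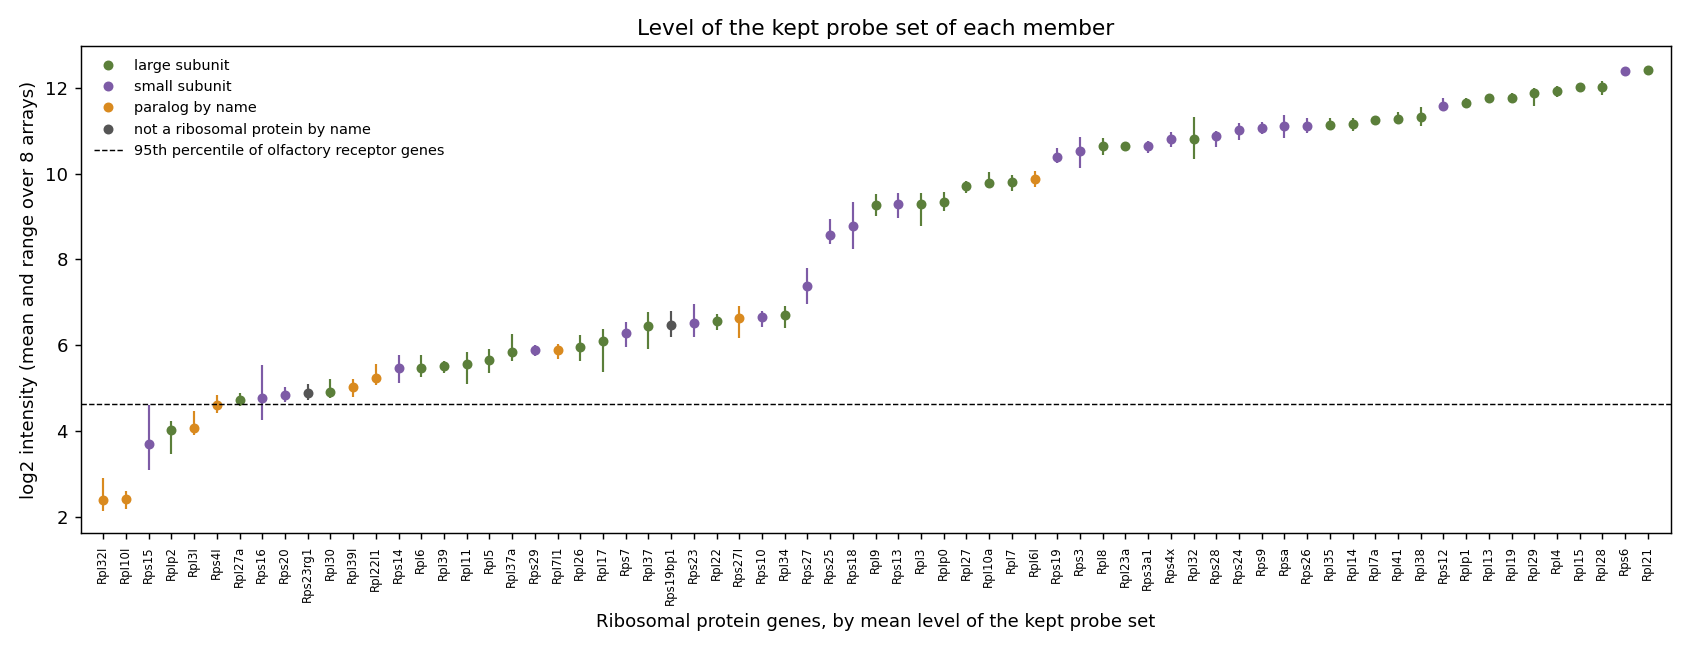
Log2 intensity of the kept probe set of each of the 69 members (y axis), ordered by mean (x axis). Points give the mean and lines the range over 8 arrays, colours give the class by name, and the dashed line is the background bound of 4.62; the 37 bright members stand apart from the 32 dim ones, and heights of different probe sets do not compare mRNA amounts.

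The name rule does not reach every protein of the ribosome. The symbols of 14 further genes, Rpl10, Rpl12, Rpl13a, Rpl23, Rpl24, Rpl31, Rpl35a, Rpl36, Rpl36a, Rpl36al, Rps15a, Rps2, Rps21 and Rps27rt, stood only on probe sets that carry several symbols. Ribosomal protein genes have many near-identical processed copies in the genome, so that probes of one gene can also bind transcripts of another. Of the kept probe sets, those of Rpl23a, Rps19 and Rps27 shared all 8 values with another probe set of the table. Among the 8 probe sets of Rps12, those ranked 2 to 7 by mean had identical values on every array and repeat 1 measurement.

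The start sites of the members the results turn on are shown because they are where a TOP tract would lie. Each line gives 30 bases of the RefSeq promoter table (GRCm38.p6), 12 before and 18 from the annotated start that lies farthest upstream. Capitals mark a C followed by at least 4 bases that are each C or T, where that C lies within 5 bases of the start.
Rps27: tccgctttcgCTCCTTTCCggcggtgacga
Rps27l: ctcctccccgccgCCTCTatcccggaagtt
Rps13: agcaaacgtcggtgagtggcgtcacttcct
Rps23: ttcggctgggcggggCTTCCCgcaatgcct
Rps18: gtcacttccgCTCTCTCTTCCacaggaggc
Rpl38: ggaagcctcgttCTTTCCCCgttctcttcg
Rpsa: ggttatttaaggacgtcatttccggccgcc
Rps6: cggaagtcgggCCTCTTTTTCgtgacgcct

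The windows lie at chr3:90213631-90213660 (minus strand) for Rps27, chr9:66946074-66946103 (plus) for Rps27l, chr7:116334173-116334202 (minus) for Rps13, chr13:90923110-90923139 (plus) for Rps23 and chr17:33955648-33955677 (minus) for Rps18. Those of Rpl38, Rpsa and Rps6 lie at chr11:114668568-114668597 (plus), chr9:120127754-120127783 (plus) and chr4:86857350-86857379 (minus). Rps27, Rps6 and Rpl38 had runs of 9, 10 and 8 pyrimidines at the start, Rps18 one of 11, Rps23 one of 6 and Rps27l one of 5, while Rps13 and Rpsa had no run that begins within 5 bases of the start. The C-led run at the end of the Rps13 window lies farther downstream. Of the 69 members, 54 had an entry, Rpl32 not among them, and 23 of these (42.6%) held such a start, against 18.5% of the 27025 genes in the table. The motif CCGGAAG, which factors of the ETS family can bind, stood on either strand of the 300 bases around the start in 22 of 54 members (40.7%), against 9.14% of all genes. Both are matches of letters to an annotated start, which need not be the one used in Treg cells. Members with and without a pyrimidine start had median log2 differences of -0.065 (n = 23) and -0.11 (n = 31) between thymus and spleen, and of 0.082 and 0.10 between KO and HET thymus. Bright members made up 12 of 23 and 16 of 31 of them.

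In the thymus, KO Treg cells had slightly higher values than HET cells over most of the set, and no single member passed the test. Positive differences were seen in 62 of 69 members, against 50.7% of all genes, with a median log2 difference of 0.095 against 0.0025 over all genes. The shift was shared by 32 of 35 large-subunit and 21 of 23 small-subunit genes and by 35 of 37 bright and 27 of 32 dim members. In limma's fit over all genes, with Benjamini-Hochberg adjustment at 0.05, 0 members were called higher, against 0.00451% of all genes (Xist alone), and 0 lower, against 0% of all genes. At an unadjusted p under 0.05 there were 4 of 69, against 5.52% of all genes. The confidence interval of the difference lay within 1 log2 unit of 0 for 68 of 69 members.

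Rps23, a small-subunit protein at the decoding centre, showed the largest difference in the thymus. Its values were 6.95 and 6.71 in thymus KO, against 6.19 and 6.19 in thymus HET. The groups did not overlap, and the log2 difference of 0.64 (95% CI 0.35 to 0.92; 1.56-fold) had an adjusted p of 0.326 in limma. In the spleen, Rps23 read 6.64 and 6.56 in KO, against 6.52 and 6.43 in HET, and differed by 0.13 (CI -0.16 to 0.41). Both thymus HET arrays were the lowest of all 8 for this gene, and both thymus KO arrays the highest.

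Rps18, a protein of the small subunit's head, read 8.84 and 9.35 in thymus KO, against 8.24 and 8.77 in thymus HET. Those groups did not overlap, but arrays of 1 group lay about as far apart as the groups did, and the difference of 0.58 (CI 0.16 to 1.01) had an adjusted p of 0.751 in limma. Over 17 alternative settings it lay between 0.18, with the mean of its 3 probe sets, and 0.85, without thymus HET 2. Rpl37 of the large subunit had 6.63 and 6.51 in thymus KO, against 6.34 and 5.92 in thymus HET, a difference of 0.44 (CI 0.07 to 0.81). Rpl17, named for its unadjusted p after its values were seen, had 6.15 and 6.15 in thymus KO, against 5.38 and 6.03 in thymus HET, so that its difference of 0.45 rested on 1 HET array.

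The largest negative differences in the thymus were those of Rpl11, Rpl34 and the retrogene Rps23rg1. Rpl11, which with Rpl5 binds Mdm2 and thereby stabilises p53, read 5.09 and 5.45 in thymus KO, against 5.40 and 5.77 in thymus HET, and the groups overlapped. Its partner Rpl5 read 5.59 and 5.91 in thymus KO, against 5.87 and 5.35 in thymus HET. The log2 differences were -0.32 for Rpl11 (CI -0.69 to 0.06), 0.14 for Rpl5 (CI -0.25 to 0.53), -0.24 for Rpl34 and -0.23 for Rps23rg1.

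Counting members whose arrays do not overlap gave a similar picture. In the thymus, 19 of 69 members had both KO arrays above both HET arrays, against 15% of all genes, and 1 had both below, against 14.4%. The median signed difference of replicate 1 minus replicate 2 over the members was 0.089 in thymus KO and 0.011 in thymus HET, so that the set's shift of 0.095 was close to the difference between the KO replicates and larger than that between the HET replicates. Thymus KO 1 was the higher KO array for 50 of 69 members, and without it the median was 0.041. Over all 8 single omissions the median lay between 0.041 and 0.13 and the positive members between 47 and 62. The other 41 probe sets of the members had 30 positive differences with a median of 0.11. The 57 probe sets with several symbols, at least 1 of them ribosomal, had 39 with a median of 0.047, and 0 of either kind were called. The 41 include the repeated Rps12 probe sets, all positive here, so that their count and median lean in part on 1 measurement.

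**Figure D2:**
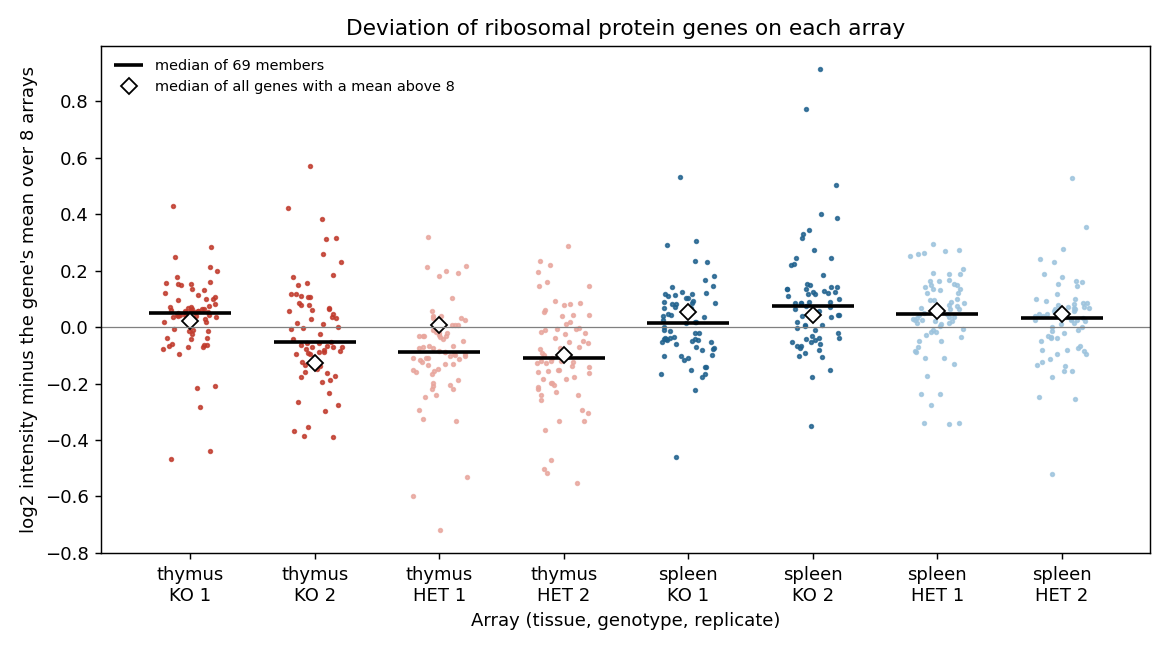
Deviation of each member from its own mean over 8 arrays, in log2 units (y axis), on each array (x axis). Points are the 69 members, bars their median and diamonds the median of all genes with a mean above 8; the bars of both thymus HET arrays, -0.087 and -0.11, are the lowest.

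The plot of deviations by array shows where the shift sits. Member medians were 0.051 and -0.055 on the thymus KO arrays, -0.087 and -0.11 on the thymus HET arrays, 0.013 and 0.075 on the spleen KO arrays and 0.046 and 0.032 on the spleen HET arrays. Thymus HET had the lowest of the 4 group means in 45 of 69 members (65.2%), against 22.2% of all genes, and in 29 of 37 bright members. It had the highest in 2. Bright genes as a whole varied between arrays too. The median deviation of all genes with a mean above 8 was 0.020 and -0.13 in thymus KO, 0.0082 and -0.10 in thymus HET, 0.052 and 0.043 in spleen KO and 0.057 and 0.047 in spleen HET. It moved with the members' median on thymus HET 2 and thymus KO 2 and not on thymus HET 1, and its part in the set's differences was not tested.

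In the spleen, KO and HET Treg cells had members on both sides of 0. Of 69 members, 41 had a positive difference, against 51% of all genes, with a median of 0.018 against 0.0034. In limma's fit 0 were called higher, against 0.00451% of all genes, and 0 lower, against 0%, and 1 had an unadjusted p under 0.05, against 4% of all genes. Without 1 array at a time the median ran from -0.040 to 0.025. Arrays did not overlap in 7 members that were higher in KO, against 18.6% of all genes, and in 16 that were lower, against 17.4%.

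The member with an unadjusted p under 0.05 was Rps16, a small-subunit protein. It read 4.60 and 5.54 in spleen KO, against 4.49 and 4.25 in spleen HET, so that the difference of 0.70 (CI 0.11 to 1.30; adjusted p = 1 in limma) rested on spleen KO 2, and without that array it was 0.23. Spleen KO 1 and both spleen HET arrays lay under the background bound of 4.62. Rps25 read 8.68 and 8.95 in spleen KO, against 8.64 and 8.43 in spleen HET, a difference of 0.28 (CI -0.02 to 0.58). Rps15 had a mean under the background bound. Its spleen values were 3.77 and 4.60 in KO, against 3.34 and 4.21 in HET. The largest negative differences, in Rps27l, Rplp1 and Rps3a1, were -0.17, -0.16 and -0.16, with intervals that include 0.

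**Figure D3:**
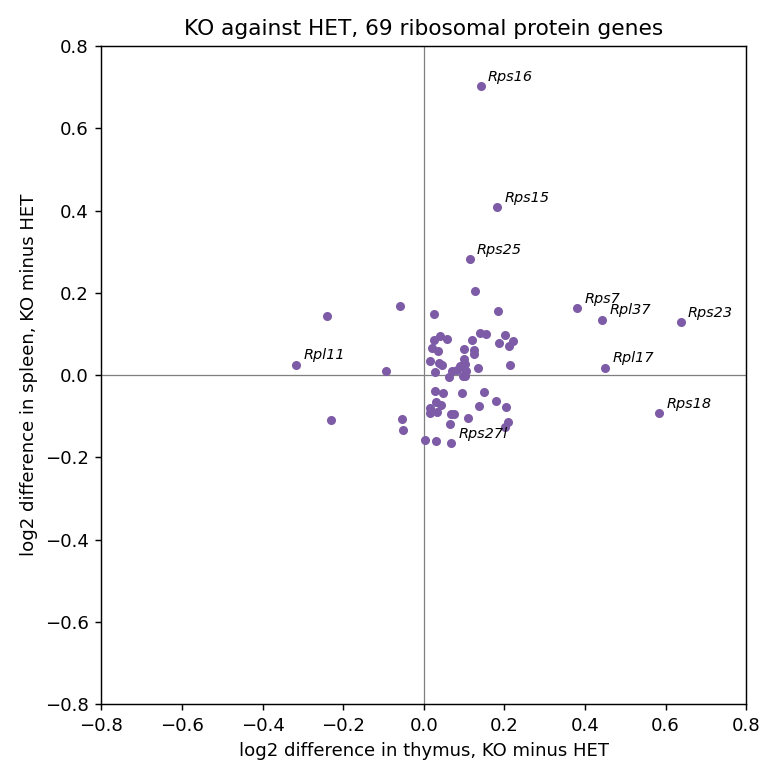
Log2 difference of KO minus HET for the 69 members in the thymus (x axis) and in the spleen (y axis); each point is 1 gene. Points lie right of 0 for 62 members and above 0 for 41, and none passed the test in either organ.

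Averaged over both organs, 51 of 69 members had a positive KO difference, against 51.4% of all genes, with a median of 0.050. Again 0 were called higher, against 0.00451% of all genes, and 0 lower, against 0.018%, in limma, with 3 at an unadjusted p under 0.05, against 5.53% of all genes. These were Rps23 (0.38, CI 0.18 to 0.58, adjusted p = 0.395), Rpl37 (0.29) and Rps16 (0.42), all higher in KO. All 4 KO arrays lay above all 4 HET arrays in 1 member, against 1.24% of all genes, and below them in 1, against 1.06%. The genotype by tissue interaction, the KO difference in thymus minus that in spleen, had a positive sign in 53 of 69 members, against 49.1% of all genes, with a median of 0.082. Its calls numbered 0 of 69 in limma, against 0% of all genes. At an unadjusted p under 0.05 there were 2 of 69, Rps18 and Rps23, against 3.67% of all genes. The smallest p values in the positive direction were those of Rps23 (0.51, CI 0.11 to 0.91), Rps18 (0.68, CI 0.08 to 1.27) and Rps10 (0.33), and the largest negative value was -0.56 for Rps16 (CI -1.40 to 0.28), each with an adjusted p of 1 in limma. Rpl17, with 0.43 (CI -0.14 to 1.01), lay between Rps23 and Rps10 in size. So the larger number of positive members in the thymus was not shown for any single gene to be a difference between the organs.

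Between the organs, Rps27, Rpl32 and Rps13 were lower in thymic than in splenic Treg cells, and the set as a whole lay slightly lower in the thymus. Averaged over genotypes, 3 of 69 members were called lower in limma (adjusted p under 0.05), against 3.17% of all genes, and 0 higher, against 2.26%, so that the share of calls was close to that of all genes. Of 69 members, 48 had a negative difference, against 45.7% of all genes, and the median was -0.082, against 0.018 over all genes. Negative differences were found in 28 of 35 large-subunit genes and in 31 of 37 bright members, against 17 of 32 dim ones. Bright genes as a whole also read lower in the thymus. The median deviation of all genes with a mean above 8 was 0.020 and -0.13 in thymus KO and 0.0082 and -0.10 in thymus HET. In spleen KO it was 0.052 and 0.043, and in spleen HET 0.057 and 0.047. For bright members it was 0.044 and -0.069, -0.089 and -0.12, -0.0091 and 0.090, and 0.078 and 0.046 in the same order. The part of this in the set's lower median was not tested. In 11 members all 4 thymus arrays lay under all 4 spleen arrays, against 8.29% of all genes, and in 3 they lay above, against 6.19%.

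Rps27, a zinc-finger protein of the small subunit, had the smallest p. It read 6.95 and 7.35 in thymus KO and 7.14 and 7.09 in thymus HET, against 7.50 and 7.79 in spleen KO and 7.53 and 7.74 in spleen HET. All thymus arrays were below all spleen arrays, with a log2 difference of -0.51 (95% CI -0.76 to -0.26; 0.704-fold; adjusted p = 0.0252 in limma). The difference was -0.50 within KO and -0.52 within HET.

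Rpl32 of the large subunit, a common reference gene in expression studies, read 10.85 and 10.45 in thymus KO and 10.60 and 10.34 in thymus HET, against 10.95 and 11.31 in spleen KO and 10.96 and 10.99 in spleen HET. The groups did not overlap, and the difference was -0.50 (CI -0.76 to -0.23; 0.709-fold; adjusted p = 0.0355 in limma). Rps13 of the small subunit read 9.33 and 9.06 in thymus KO and 8.96 and 9.07 in thymus HET, against 9.37 and 9.51 in spleen KO and 9.54 and 9.47 in spleen HET. Its difference was -0.37 (CI -0.58 to -0.16; 0.775-fold; adjusted p = 0.0489 in limma), and with the mouse pool as a block its adjusted p was 0.061. Rps27 and Rpl32 kept their calls with that block.

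**Figure D4:**
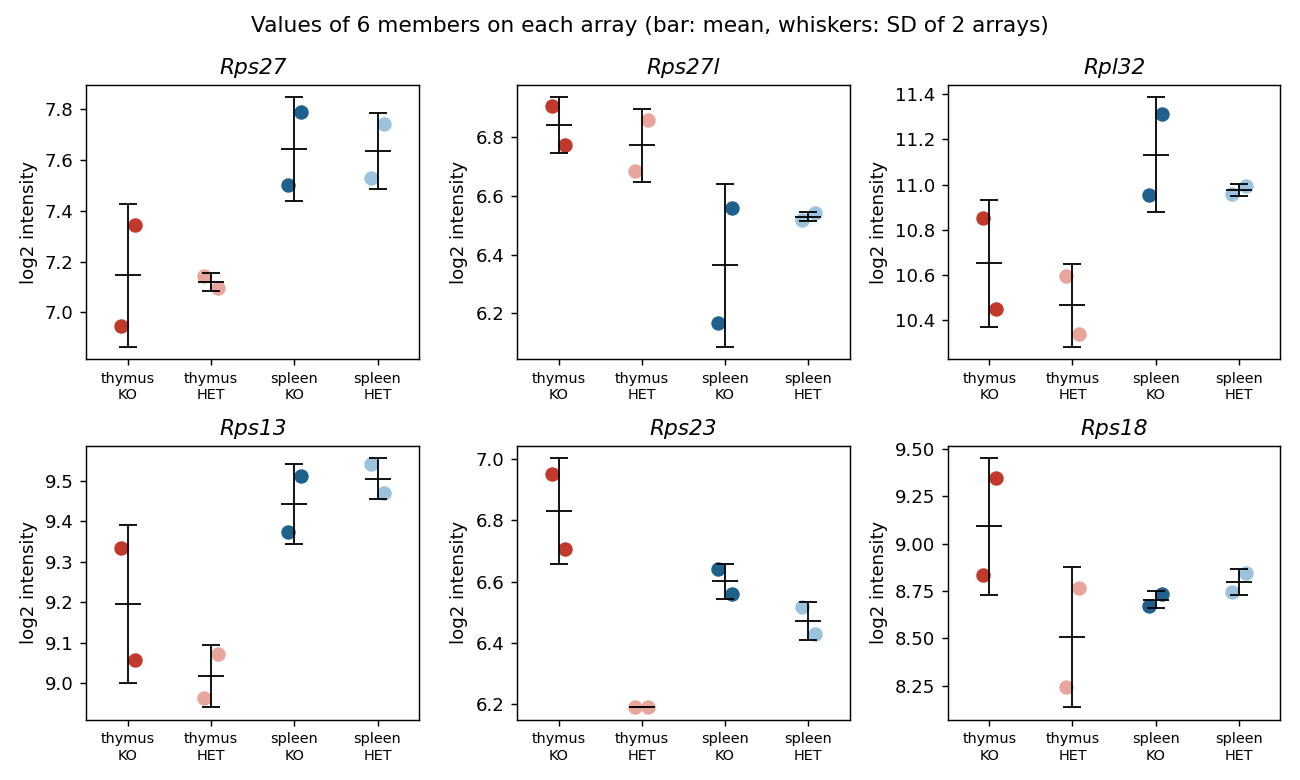
Log2 intensity (y axis) of 6 members on each array, by group (x axis), with the mean as a bar and the SD of 2 arrays as whiskers; each panel has its own y range. Rps27, Rpl32 and Rps13 lie lower and Rps27l higher on thymus than on spleen arrays, and Rps23 is lowest in thymus HET.

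The 3 calls depended on the arrays used. Without 1 array at a time there were between 0 and 4, and 0 without spleen HET 1, spleen HET 2 or spleen KO 2. Without thymus HET 2 the only call was Rpl17, and without thymus KO 2 it was Rps27. The direction of Rps27, Rpl32 and Rps13 was the same in all 16 alternatives run for each. The median of the set stayed between -0.10 and -0.059 over the 8 omissions. Among the other 41 probe sets of the members, 19 had a negative difference and the median was 0.013, while 42 of the 57 probe sets with several symbols had a negative difference, with a median of -0.11. No call was made in either, and their smallest adjusted p over all probe sets was 0.0536. The repeated Rps12 probe sets are among the 41 and were all positive, so that this count and median also lean in part on 1 measurement.

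Several bright members came next without passing the test. Rpsa, which is also known as the laminin receptor, read 11.07 and 10.83 in thymus KO and 11.02 and 10.84 in thymus HET, against 11.21 and 11.24 in spleen KO and 11.37 and 11.27 in spleen HET. No thymus array reached a spleen array, and the difference was -0.33 (adjusted p = 0.0669 in limma). Rpl38, whose loss of 1 copy alters the skeleton of the mouse, averaged 11.19 ± 0.056 in thymus and 11.45 ± 0.077 in spleen (SD, n = 4 each), a difference of -0.26 (adjusted p = 0.103 in limma). Rps3 (-0.37, adjusted p = 0.0808) and Rpl9 (-0.28, adjusted p = 0.0897), named after their values were seen, had arrays that did not overlap either. The largest negative difference of all, -0.59 for Rps15, was measured under the background bound, with thymus and spleen arrays that overlap.

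Other members known for single functions had small differences. Rps6 spanned 12.31 to 12.45 over all arrays, with a thymus difference of -0.07 (CI -0.25 to 0.12) and a KO difference, averaged over organs, of 0.03 (CI -0.16 to 0.21). The stalk proteins Rplp0, Rplp1 and Rplp2, which recruit elongation factors, differed between thymus and spleen by -0.07, -0.04 and -0.15, with Rplp2 under the bound. Rps19, the gene most often mutated in human Diamond-Blackfan anaemia, differed by -0.17 (CI -0.36 to 0.03), and Rpl22, which mice need to form αβ T cells, by -0.18 (CI -0.37 to 0.01). The X-linked members Rps4x and Rpl39 differed between KO and HET by -0.03 (CI -0.24 to 0.18) and 0.05 (CI -0.14 to 0.24) averaged over organs. These intervals limit such differences to less than 0.5 log2 units; they do not show that the groups were equal.

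**Figure D5:**
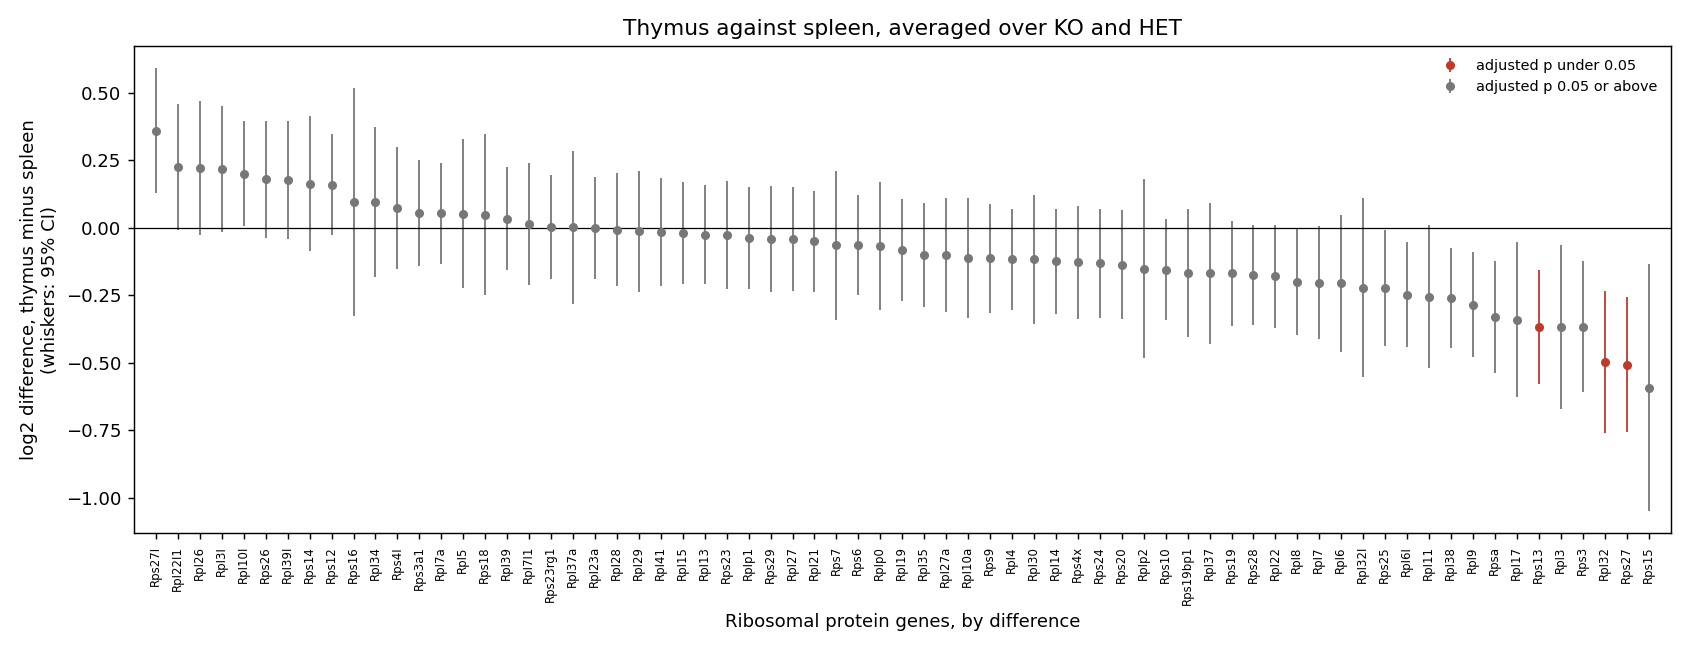
Log2 difference of thymus minus spleen, averaged over KO and HET (y axis), for the 69 members in the order of their difference (x axis), with 95% confidence intervals. Red points are the 3 members with an adjusted p under 0.05, and 48 of 69 points lie under 0.

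The paralog of Rps27 lay on the other side of 0. Rps27l, whose human gene is induced by p53, read 6.91 and 6.77 in thymus KO and 6.69 and 6.86 in thymus HET, against 6.17 and 6.56 in spleen KO and 6.52 and 6.54 in spleen HET. All thymus arrays were above all spleen arrays, with a difference of 0.36 (CI 0.13 to 0.59; 1.28-fold; adjusted p = 0.0732 in limma). On each array the value of Rps27l minus that of Rps27 was taken, which cancels only a shift of the same log2 size in both probe sets. It averaged -0.33 ± 0.24 in thymus and -1.19 ± 0.13 in spleen (SD, n = 4 each), a change of 0.87 with no overlap. A two-sided exact permutation test gave p = 0.0286, the smallest that 4 against 4 arrays allow, and 0.0763 adjusted over 8 pairs. Each gene alone already separated the organs, in opposite directions. The separation of their difference and its p follow from that and are no further evidence.

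Among the 8 pairs tested, Rpl22l1 minus Rpl22 was 0.41 higher and Rpl3l minus Rpl3 was 0.59 higher in thymus, with the same p, the second from a paralog under the bound. The other 5 pairs had p from 0.0857 to 0.886. Rpl22l1 alone read 5.17 and 5.55 in thymus KO and 5.28 and 5.40 in thymus HET, against 5.27 and 5.06 in spleen KO and 5.07 and 5.10 in spleen HET, and the difference of 0.23 had an adjusted p of 0.252 in limma. Thymus and spleen arrays of one pool share their mice, which this test does not use.

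Within one genotype no member passed the test between organs. In KO, 43 of 69 had a negative difference, against 48% of all genes, with a median of -0.042, and 0 were called higher, against 0.744% of all genes, or lower, against 0.974%. The count at an unadjusted p under 0.05 was 7, against 15.7% of all genes. Arrays did not overlap in 13 members that were higher in thymus, against 22.8% of all genes, and in 19 that were lower, against 22.1%. The KO median turned to 0.014 without thymus KO 2 and to 0.0093 without spleen KO 2. In HET, 54 of 69 were negative, against 47.5% of all genes, with a median of -0.13. Again 0 were called higher, against 0.618%, or lower, against 0.582%, and 9 had an unadjusted p under 0.05, against 11.7%. Arrays did not overlap in 6 members that were higher in thymus, against 23.2% of all genes, and in 32 that were lower, against 21.6%. The HET comparison and the KO comparison in the thymus use the same thymus HET arrays, so their signs are not independent of each other.

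Other genes of the translation machinery were read from lists fixed by function. Of 40 measured genes of ribosome biogenesis, 37 had a negative thymus difference with a median of -0.24, and 3 were called lower and 0 higher. Of all genes, 45.7% were negative, 3.17% were called lower and 2.26% higher, and these shares hold beside all lists of this comparison. The called genes were Rrn3, an initiation factor of RNA polymerase I (-0.70, CI -0.99 to -0.41, adjusted p = 0.010 in limma), Riok2, a kinase in small-subunit maturation (-0.37), and Sbds, which frees the large subunit of an assembly factor (-0.40). Of 71 mitochondrial ribosomal proteins, 58 were negative with a median of -0.096, and 1, Mrpl16, was called lower. Of 8 genes listed as elongation factors 7 were negative and 1 was called lower, Eef1e1, which is such a factor by symbol only. Of 31 initiation factors 23 were negative and 0 were called. Of 15 other mRNAs known to carry a TOP tract 10 were negative, 5 were positive and 0 were called. This list repeats translation factors of the lists before it, such as Eef1d and Eif3h. Of its members that are neither elongation nor initiation factors, Pabpc1, Npm1, Tpt1 and Naca averaged higher in thymus. Btf3 (-0.20) and the ribosomal protein gene Fau (-0.15) were lower. The difference of Npm1, a nucleolar chaperone, was 0.29 (adjusted p = 0.080 in limma). Of 15 regulators of TOP mRNAs, 8 were negative and 7 positive with a median of -0.0016, and 1 was called lower, the mTOR subunit Mlst8 (-0.52, adjusted p = 0.0449 in limma). Larp4 (0.31, adjusted p = 0.0718) and Myc (0.31, adjusted p = 0.0925) had positive differences. Against these, the median of all genes was 0.018.

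In KO against HET thymus, 0 genes of these lists were called, and 50.7% of all genes were positive, with a median of 0.0025. Hosts of small nucleolar RNAs, many of which also carry TOP tracts, had 10 of 10 positive differences with a median of 0.28. They include Zfas1, with 8.09 and 7.65 in thymus KO, against 7.57 and 7.43 in thymus HET. In the spleen the hosts had 7 of 10 positive with a median of 0.12. Ribosome biogenesis genes were positive in 31 of 40 (median 0.074) and mitochondrial ribosomal proteins in 50 of 71 (median 0.075). In the spleen they were positive in 29 of 40 (median 0.066) and 52 of 71 (median 0.052), against 51% of all genes with a median of 0.0034.

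Other gene groups moved with the organ, and their part in the ribosomal differences was not tested. Of 27 measured cell cycle genes, 27 had a positive thymus difference with a median of 0.66, and 18 were called higher, against 2.26% of all genes, Kif11 among them (1.32, adjusted p = 0.000363 in limma). Their summed linear intensity ran from 3584 to 5048 in thymus KO and 3554 to 4592 in thymus HET, against 3088 to 3317 in spleen KO and 2461 to 2954 in spleen HET. Between genotypes, 27 of 27 were higher in spleen KO than in spleen HET, with a median of 0.24, against 51% of all genes with a median of 0.0034. In the thymus 21 of 27 were higher in KO, with a median of 0.0745, against 50.7% of all genes. In either organ 0 were called higher, against 0.00451% of all genes. Of 7 markers of double-positive thymocytes, 4 with means under the bound, 2 were called higher in thymus, against the same 2.26%. These were Cd8a (1.15) and Dntt (0.96). Both are among those 4, and on the spleen arrays they lay under the bound, at 3.64 to 4.15 and 3.80 to 3.91. Rag2 stayed under it on all arrays (2.94 to 3.36). The sum of the 7 was 361 to 442 in thymus KO and 317 to 348 in thymus HET, against 288 to 306 in spleen KO and 272 to 283 in spleen HET. Of 5 B cell markers, 3 with means under the bound, Ighm alone was called, lower in thymus (-0.76), against 3.17% of all genes. Their sum was 1014 to 1128 in thymus KO and 1247 to 1425 in thymus HET, against 1748 to 1786 in spleen KO and 2122 to 2197 in spleen HET.

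Cell markers were also compared between the genotypes in the thymus, and 0 were called in limma. Cd8a read 6.22 and 5.27 in thymus KO, against 4.39 and 4.57 in thymus HET, and was highest on thymus KO 1. Its difference was 1.27 (CI 0.73 to 1.80, adjusted p = 0.326 in limma), with both thymus HET values under the background bound of 4.62. Dntt differed by -0.42 (CI -0.72 to -0.11), with thymus KO values of 4.62 and 4.59, at about the bound. Of 7 markers of double-positive thymocytes, 3 were positive. All 6 Treg cell markers had a negative difference, with a median of -0.13, and their summed linear intensity was 10057 to 10680 in thymus KO, against 10925 to 12118 in thymus HET. The part of these differences in the shift of the ribosomal protein genes was not tested.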

How the data were processed

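RNA of sorted Treg cells was measured on 8 Affymetrix arrays, 2 in each of 4 groups taken from the labels. The authors deposited 1 table of log2 intensities for 41345 probe sets, summarised with the Bioconductor package oligo per the submitters' notes; its version, the summarisation and any background correction are not given in the sources used here. The study's methods name another array design than the deposited probe identifiers, which were followed. Saturation can compress differences of very bright probe sets, which was not tested. Depth does not apply to arrays, so that their number limits the precision. Probe sets were named from the platform annotation (23521 with 1 symbol, 1820 with several, 16004 not listed), and the brightest was kept for each of the 1082 genes that had several.

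Python 3.11.15 and pandas 2.3.3 read the table, and limma 3.58.1 in R 4.3.3 fitted a mean for each of the 4 groups to all 22180 genes (lmFit and eBayes, 4 residual degrees of freedom). Each log2 difference is given with its 95% confidence interval (CI). Two-sided p-values were corrected for all genes of a contrast (Benjamini-Hochberg), with a threshold of 0.05. Paralog ratios were compared with exact permutation tests. Members and gene lists were chosen with earlier results of these data known. Genes were named by a rule: per genotype contrast and interaction the 3 members with the smallest p in each direction, called members between organs, and a set named for its roles or paralogs. Each array is 1 pool of mice, and p-values measure the spread between pools.

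Pool numbers pair thymus and spleen arrays, since the labels give the same mice. Over 12115 genes, deviations of paired arrays from their group means correlated with r = 0.009 in KO and 0.179 in HET, and the pool was used as a block in an alternative. Other alternatives were quantile normalization, subtraction of array medians, a filter on dim genes, eBayes with trend and robust spread, array weights, averaging all probe sets of a gene, fits of the compared groups alone, narrower member sets, and leaving out each array. Members above the bound, and those with means above 8, were taken alone after seeing the data.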

Additional observations from a re-analysis of the deposited data

How the results depend on the processing

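For thymus against spleen averaged over genotypes, the 3 calls among ribosomal protein genes became 0 after quantile normalization, 7 when only genes above the median level entered, and 8 with eBayes with trend and robust spread, and they ran from 0 to 4 when 1 array was left out. Within HET, the 0 calls became 1 with trend and robust spread (Rpl38) and ran from 0 to 1 when 1 array was left out. Over all comparisons, 134 of 144 recounts under an alternative stayed within 1.5 times the main count. Most of these set 0 against 0, since only the organ comparison averaged over genotypes had calls in the main fit. Most of the recounts that moved were in that comparison. Of 1104 recomputed differences of named genes, 1077 kept their side of the threshold, 21 lost the call and 6 gained it. Nearly all of the 1104 were never called. All 21 lost calls were those of Rps27, Rpl32 and Rps13, which kept theirs in 10, 10 and 7 of 16 alternatives. The sign was kept in 1060, and 0 called values changed sign. With the mouse pool as a fixed replicate block, the calls between organs were 2 (Rpl32 and Rps27), and with the pool as a random block (consensus correlation 0.0692) they were 3. Replicate number as a block in the KO comparisons left 0 calls; KO and HET arrays share only that number, and the deviations of same-numbered arrays correlated with r = 0.265 in thymus and -0.078 in spleen. The block changed no other member's call. The cause of these changes was not tested, except that the filter adjusts p over fewer genes. With 2 arrays per group, a member's median standard error was 0.14 log2 units within one organ, and 6 members under the background bound limit what their values show. Scaling by array medians moved the median thymus difference of all genes from 0.018 to -0.033 and that of the members to -0.13, with 54 members negative in place of 48; after quantile normalization 43 were negative.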

Other observations

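The second-brightest probe sets of Rpl13, Rpl4 and Rplp0 were picked out after their values were seen, because they spread more than the brightest ones of the same genes. The second probe set of Rpl13 read 9.42 and 9.89 in thymus KO, against 8.82 and 9.07 in thymus HET, while its brightest read 11.83 and 11.78 in thymus KO, against 11.67 and 11.67 in thymus HET. That of Rpl4 read 8.34 and 8.83 in thymus KO, against 7.49 and 7.90 in thymus HET. That of Rplp0 read 6.20 and 6.81 in thymus KO, against 5.75 and 5.99 in thymus HET. In all 3, thymus KO 2 was the highest and thymus HET 1 the lowest of the 8 arrays, which is the order of Rps18 too. Spleen values of the second Rpl13 probe set were 8.95 and 9.07 in KO, against 9.20 and 9.26 in HET. Which transcripts these probe sets bind was not tested, and no probe set of these genes passed the test in either organ.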
